A study of Mus musculus with 8 samples.

Results

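Complexes II to V of the respiratory chain carry electrons from succinate and ubiquinol to oxygen and make ATP. Their subunits are encoded mostly in the nucleus, and 49 such genes were found among the 46517 genes of a whole liver count table. A gene was taken when its symbol in GENCODE M21 was Sdha, Sdhb, Sdhc, Sdhd or Cyc1, or began with Uqcr, with Atp5 or with Cox followed by a digit from 4 to 8, except for pseudogene symbols with the ending ps. Complex II had 4 of these genes, complex III 9, complex IV 19 and complex V 17. Annotation M21 lists 48 as protein coding and Cox6c2 as a processed pseudogene. The livers came from 8 male C57BL/6 mice, 4 MøFoxO1-KO mice and 4 WT littermates, all with the FoxO1 loxP/loxP allele. MøFoxO1-KO mice in addition carried Lyz2-Cre, in which the lysozyme 2 promoter drives Cre recombinase in myeloid cells, so that the deletion is aimed at macrophages and other myeloid cells and not at hepatocytes. In both genotypes the NASH diet began at 6 weeks of age and lasted 25 weeks, and livers were taken after a 16 hour fast at 31 weeks. The mice are named here by their numbers, 22 to 25 for WT littermates and 26 to 29 for MøFoxO1-KO mice, and values per mouse are given in that order.

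In the inner mitochondrial membrane, complex II (succinate dehydrogenase) oxidizes succinate to fumarate within the citric acid cycle and reduces ubiquinone. Complex III (the cytochrome bc1 complex) passes electrons from ubiquinol to cytochrome c, and complex IV (cytochrome c oxidase) passes them on to oxygen. Complexes III and IV pump protons, and complex V (ATP synthase) lets protons flow back through its c ring to drive ATP formation. Complex II is encoded by nuclear genes throughout, whereas the other complexes join nuclear subunits with a few subunits encoded in mitochondrial DNA. Fasted hepatocytes depend on this chain for the ATP that gluconeogenesis and urea synthesis consume.

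Total counts ranged from 15253218 to 18025481 per mouse, and the 49 genes held from 1.09 to 1.37% of them. Foxo1, the targeted gene, had 422, 467, 328 and 461 counts in WT littermates and 448, 253, 438 and 259 in MøFoxO1-KO mice, and the genotypes overlapped. Whole liver holds Foxo1 RNA of every cell type, so these values do not check the deletion in myeloid cells. All 6 hepatocyte markers examined were abundant, with at least 4348 counts in every mouse. Libraries differed in a trend of counts with gene length. Per doubling of summed exon length, the log2 level moved by 0.013, 0.11, 0.054 and 0.018 in WT littermates and by -0.020, -0.073, -0.013 and -0.085 in MøFoxO1-KO mice, so that this trend separated the genotypes. Since most subunit genes are short, values with an offset for gene length and GC content are given below beside the values without it.

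Most nuclear subunit genes of complexes III, IV and V had higher mean counts in MøFoxO1-KO livers than in WT livers, although none passed an adjusted P of 0.05 in edgeR, and those of complex II did not share a direction. Of the 49 genes, 43 passed edgeR's filter on low counts, and 39 of these had a log2 fold change above 0 and 4 below 0. Their median log2 fold change was 0.35, against -0.014 over all 13278 tested genes. At an unadjusted P under 0.05 (edgeR's quasi-likelihood test), 25 of the 43 genes had higher counts and 0 had lower counts in MøFoxO1-KO mice, beside 8.65% of all tested genes that were higher and 8.06% that were lower at that P. No member passed a Benjamini-Hochberg adjusted P of 0.05 in edgeR, beside 0.294% of all tested genes, and the smallest adjusted P was 0.123. With DESeq2, 7 members were higher and 0 lower at an adjusted P under 0.05, beside 2.25% of the genes tested there that were higher. Every MøFoxO1-KO mouse lay above every WT littermate in 16 of the 43 genes and below in 0, beside 5.00% and 4.71% of all tested genes. In each of these 16 genes the exact permutation test gave P = 0.0286, the smallest that 4 mice against 4 allow and the value that any gene without overlap gives. In bulk liver, fewer cells of a type and less RNA per cell cannot be told apart.

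The number of genes higher at an unadjusted P under 0.05 depended on single mice and on the length trend. Without WT littermate 24 it was 16 and without MøFoxO1-KO mouse 29 it was 14. The share of all tested genes that were higher was not counted in those fits. With the offset for gene length and GC content, 14 genes were higher and 0 lower, beside 7.35% of all tested genes that were higher in that fit. The median over the 43 genes was then 0.14, and 32 genes lay above 0.

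**Figure D1:**
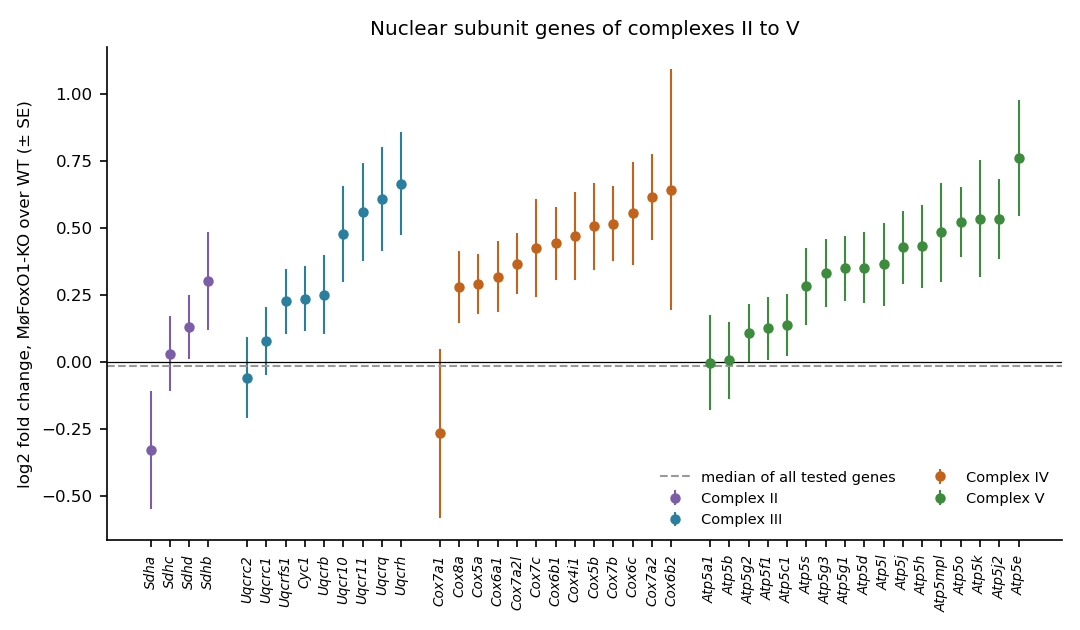
Log2 fold change of MøFoxO1-KO over WT livers on the y axis for the 43 tested subunit genes, grouped by complex along the x axis and sorted within each. Points are edgeR estimates, bars are standard errors and the dashed line is the median of all tested genes. Sdha, Uqcrc2, Cox7a1 and Atp5a1 are the 4 genes below 0, of which Atp5a1, at -0.0014, and Uqcrc2 change sign under other scalings or offsets.

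The promoters of these genes are known for binding sites of NRF1, GABP, YY1 and ERR proteins, factors of mitochondrial gene expression. RefSeq promoter windows of 300 bases (250 before to 50 after the start, build GRCm38.p6) matched 35 of the 49 genes. They were searched on both strands for GCGCATGC (NRF1), CCGGAAG (GABP), AAGATGGCG (YY1) and AAGGTCA (ERR), none of which holds another. GCGCATGC was in the windows of 7 of 35 genes, 20%, against 3.05% of all 27025 genes with a window. CCGGAAG was in 12 (34.3%, against 9.93%), AAGATGGCG in 2 (5.71%, against 1.64%) and AAGGTCA in 5 (14.3%, against 5.38%). At least 1 of the 4 was found for 16 genes (45.7%, against 18.4%). These 16 had a median log2 fold change of 0.40, against 0.35 for the 17 tested genes without a match. A match is a run of letters and was not tested for binding. The 27025 genes were not limited to genes tested in these livers, and a comparison with such genes was not made. The 250 upstream bases are printed for the member with the largest log2 fold change in complex III, for another small subunit of complex III, for the member with the largest in complex V, and for the catalytic pair of complex II, whose log2 fold changes had opposite signs. Capitals mark a match to 1 of the 4 motifs.
Uqcrh (chr4:116075071-116075320, minus strand): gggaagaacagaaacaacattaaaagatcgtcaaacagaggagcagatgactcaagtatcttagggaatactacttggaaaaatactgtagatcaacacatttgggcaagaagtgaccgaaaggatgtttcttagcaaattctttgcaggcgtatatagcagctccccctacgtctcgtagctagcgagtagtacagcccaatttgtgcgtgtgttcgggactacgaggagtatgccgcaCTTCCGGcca
Uqcr11 (chr10:80406822-80407071, minus strand): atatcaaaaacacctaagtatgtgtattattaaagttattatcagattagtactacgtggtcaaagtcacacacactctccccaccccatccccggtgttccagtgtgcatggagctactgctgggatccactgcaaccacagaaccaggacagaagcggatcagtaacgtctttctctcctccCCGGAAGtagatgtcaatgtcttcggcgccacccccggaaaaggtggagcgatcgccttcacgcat
Atp5e (chr2:174464102-174464351, minus strand): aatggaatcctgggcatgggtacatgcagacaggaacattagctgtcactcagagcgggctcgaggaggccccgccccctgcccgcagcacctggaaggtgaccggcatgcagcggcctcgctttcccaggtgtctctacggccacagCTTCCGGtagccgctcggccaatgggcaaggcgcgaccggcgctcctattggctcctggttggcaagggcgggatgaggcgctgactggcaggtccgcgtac
Sdhb (chr4:140961021-140961270, plus strand): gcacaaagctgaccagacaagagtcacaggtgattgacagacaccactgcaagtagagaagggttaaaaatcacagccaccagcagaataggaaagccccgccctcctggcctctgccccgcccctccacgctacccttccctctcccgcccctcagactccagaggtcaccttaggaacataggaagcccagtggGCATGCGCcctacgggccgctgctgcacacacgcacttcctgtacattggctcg
Sdha (chr13:74350241-74350490, minus strand): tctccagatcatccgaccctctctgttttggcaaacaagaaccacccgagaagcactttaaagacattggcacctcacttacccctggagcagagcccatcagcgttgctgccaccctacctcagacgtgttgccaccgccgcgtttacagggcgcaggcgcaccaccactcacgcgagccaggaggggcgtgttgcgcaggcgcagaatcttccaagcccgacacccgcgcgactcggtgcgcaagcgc
In Uqcrh, Uqcr11 and Atp5e the match is CCGGAAG or its reverse complement, in Sdhb it is the reverse complement of GCGCATGC, and no match lies in the upstream bases of Sdha. Windows of Uqcr11 (GCGCATGC), Atp5e (AAGGTCA) and Sdhb (CCGGAAG) hold a further match that reaches into the 50 bases after the start, which are not shown. The printed genes do not represent all members, since Atp5o and Cox7a2, with log2 fold changes of 0.52 and 0.62, had no match.

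In complex II, none of the 4 genes passed an unadjusted P of 0.05, and the median log2 fold change was 0.082, which turned to -0.016 with an offset for gene length. Sdha, the flavoprotein that oxidizes succinate (ENSMUSG00000021577, chr13:74322254-74350280 of GRCm38), had normalized counts of 6915, 10154, 4811 and 5507 in WT littermates and 6360.0, 4849, 5455 and 5158 in MøFoxO1-KO mice. WT littermate 23 was the highest of all mice, and WT littermate 22 was also above every MøFoxO1-KO mouse. WT littermate 24 was below every MøFoxO1-KO mouse, and WT littermate 25 lay among them. Sdha averaged 6847 ± 2372 in WT littermates and 5456 ± 652 in MøFoxO1-KO mice (SD, n = 4), with a log2 fold change (± SE) of -0.33 ± 0.22 (edgeR, Benjamini-Hochberg adjusted P = 0.493), and the log2 fold change was -0.075 without WT littermate 23. Sdhb, the iron-sulfur subunit that takes electrons from Sdha (ENSMUSG00000009863, chr4:140961203-140979193 of GRCm38), had 4727, 4543, 2581 and 3665 in WT littermates and 4902, 4393, 4868 and 4986 in MøFoxO1-KO mice. WT littermates 24 and 25 were below every MøFoxO1-KO mouse, and WT littermates 22 and 23 lay among them. The log2 fold change (± SE) of 0.30 ± 0.18 (edgeR, Benjamini-Hochberg adjusted P = 0.435) was opposite in sign to that of Sdha, and with the offset for gene length and GC content the values were -0.28 for Sdha and 0.23 for Sdhb. The membrane anchors that hold the haem and the ubiquinone site had log2 fold changes of 0.033 (edgeR, Benjamini-Hochberg adjusted P = 0.931) for Sdhc and 0.13 (edgeR, Benjamini-Hochberg adjusted P = 0.624) for Sdhd. Both had genotypes that overlapped, and the sign for Sdhd was negative with that offset (-0.062), where Sdhc had 0.060. The ratio of Sdhb to Sdha counts needs no scaling for library size and was chosen after the values were seen. It ran from 0.447 to 0.684 in WT littermates and from 0.771 to 0.967 in MøFoxO1-KO mice. It was 1 of 9 ratios between subunits of 1 complex that were computed, and in the other 8 the genotypes overlapped. The ratio does not remove the trend of counts with gene length, and Sdha has 3883 exon bases against 2239 in Sdhb. It was lowest in WT littermate 23 and highest in mouse 29, which had the steepest positive and negative trends with exon length. The part of this trend in the ratio was not tested.

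**Figure D2:**
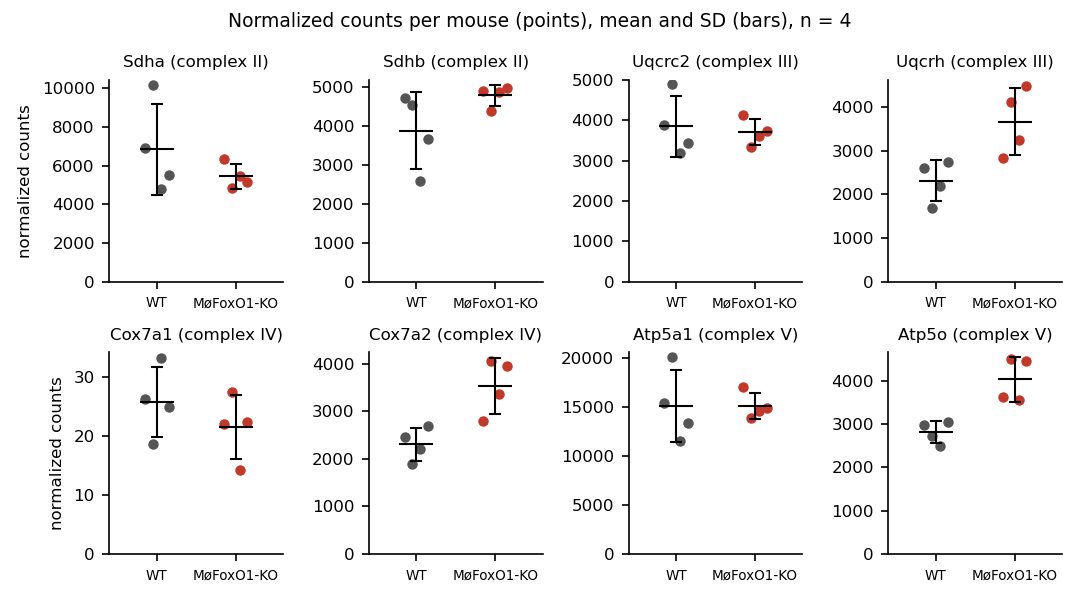
Normalized counts on the y axis for 8 subunit genes in WT littermates and MøFoxO1-KO mice on the x axis, with 1 point per mouse and bars for the mean and SD of 4 mice. The genotypes do not overlap for Uqcrh, Cox7a2 and Atp5o, and they overlap for Sdha, Sdhb, Uqcrc2, Cox7a1 and Atp5a1.

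In complex III, 8 of 9 genes had a log2 fold change above 0, with a median of 0.25, and 4 were higher at an unadjusted P under 0.05. These 4 were small subunits without redox centres. The hinge protein Uqcrh (ENSMUSG00000063882, chr4:116066965-116075071 of GRCm38), which sits beside cytochrome c1, had normalized counts of 2600.4, 1698, 2193 and 2746 in WT littermates and 2838, 4117, 3234 and 4481 in MøFoxO1-KO mice. Every MøFoxO1-KO mouse was above every WT littermate, although mouse 26 exceeded WT littermate 25 by a small margin. Means were 2309 ± 469.8 in WT littermates and 3668 ± 761 in MøFoxO1-KO mice (SD, n = 4), with a log2 fold change (± SE) of 0.67 ± 0.19 (edgeR, Benjamini-Hochberg adjusted P = 0.153) and a DESeq2 adjusted P of 0.0319. The ubiquinone-binding subunit Uqcrq (ENSMUSG00000044894, chr11:53427922-53430831 of GRCm38) had 11083, 6800.5, 8647 and 11429.9 in WT littermates and 11547, 16215, 13697 and 16479.7 in MøFoxO1-KO mice. The genotypes were again apart, with mouse 26 nearest to the WT littermates, and Uqcrq had a log2 fold change (± SE) of 0.61 ± 0.19 (edgeR, Benjamini-Hochberg adjusted P = 0.182) and a DESeq2 adjusted P of 0.0491. Uqcrq also had the highest level per exon length in complex III, with an RPKM, here the counts per kilobase of exon scaled to the TMM library size, of 316 ± 72.5 in WT littermates and 482 ± 77.4 in MøFoxO1-KO mice (SD, n = 4).

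Uqcr11 and Uqcr10, the other small subunits past the unadjusted P, had log2 fold changes of 0.56 (edgeR, Benjamini-Hochberg adjusted P = 0.19) and 0.48 (edgeR, Benjamini-Hochberg adjusted P = 0.228), and in both the genotypes overlapped through mouse 26. Their values with the offset for gene length and GC content were 0.24 and 0.14, and neither passed an unadjusted P of 0.05 there. Uqcrh and Uqcrq had 0.47 and 0.52 with that offset and stayed past it. The subunits that carry redox centres had smaller log2 fold changes. Cyc1 (cytochrome c1) had a log2 fold change of 0.24 (edgeR, Benjamini-Hochberg adjusted P = 0.359) and the Rieske iron-sulfur protein Uqcrfs1 one of 0.23 (edgeR, Benjamini-Hochberg adjusted P = 0.384), and the remaining small subunit Uqcrb had 0.25 (edgeR, Benjamini-Hochberg adjusted P = 0.424). With the offset, Cyc1 turned to -0.019 and Uqcrb to -0.025, and Uqcrfs1 had 0.055. The large core proteins, which face the matrix, overlapped between genotypes. Uqcrc2 had normalized counts of 3882, 4913, 3188 and 3451 in WT littermates and 4127, 3351, 3621 and 3738 in MøFoxO1-KO mice, highest in WT littermate 23, with a log2 fold change (± SE) of -0.057 ± 0.15 (edgeR, Benjamini-Hochberg adjusted P = 0.885). The log2 fold change was 0.081 (edgeR, Benjamini-Hochberg adjusted P = 0.792) for Uqcrc1, and with the offset Uqcrc2 had -0.076 and Uqcrc1 0.11. Over the 5 small subunits the median was 0.56, against 0.012 over the 2 core proteins.

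Complex IV had 19 genes, of which 13 were tested, and 12 of these had a log2 fold change above 0. The median was 0.44, or 0.18 with the offset for gene length and GC content, and 10 genes were higher at an unadjusted P under 0.05. Cox7a2 (ENSMUSG00000032330, chr9:79755241-79759853 of GRCm38), the widely expressed form of subunit 7a, had normalized counts of 2457, 1889.9, 2204 and 2697 in WT littermates and 2790.4, 4062, 3362 and 3963 in MøFoxO1-KO mice. All MøFoxO1-KO mice were above all WT littermates, by the smallest margin in mouse 26. It averaged 2312 ± 346 in WT littermates and 3544 ± 590.1 in MøFoxO1-KO mice (SD, n = 4), with a log2 fold change (± SE) of 0.62 ± 0.16 (edgeR, Benjamini-Hochberg adjusted P = 0.131) and a DESeq2 adjusted P of 0.0139. Cox7b (ENSMUSG00000031231, chrX:106015700-106022450 of GRCm38), a small membrane subunit, had 2885, 2392, 2149.5 and 2896 in WT littermates and 3306, 3921, 3440.2 and 4115 in MøFoxO1-KO mice. The genotypes were apart here too, with a log2 fold change (± SE) of 0.52 ± 0.14 (edgeR, Benjamini-Hochberg adjusted P = 0.134) and a DESeq2 adjusted P of 0.0217. With the offset, Cox7a2 had 0.31 and Cox7b 0.31, and both stayed past an unadjusted P of 0.05, as did 5 of the 10 genes in all.

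Cox6b1, which lies on the intermembrane side where cytochrome c docks, had normalized counts of 3494, 2854, 2552 and 3273 in WT littermates and 3563, 4523, 4161 and 4311 in MøFoxO1-KO mice. The lowest MøFoxO1-KO mouse exceeded the highest WT littermate, and the log2 fold change was 0.44 (edgeR, Benjamini-Hochberg adjusted P = 0.176). Cox7a2l, an assembly factor for supercomplexes of complexes III and IV, had 1820.1, 1426, 1482 and 1631 in WT littermates and 2012, 2147, 1959.7 and 2087 in MøFoxO1-KO mice, also without overlap, at a log2 fold change of 0.37 (edgeR, Benjamini-Hochberg adjusted P = 0.175). With the offset for gene length and GC content neither passed an unadjusted P of 0.05, at 0.11 for Cox6b1 and 0.16 for Cox7a2l. Cox6a1, a regulatory subunit, had the highest level per exon length of the complex, with an RPKM of 693 ± 65.6 in WT littermates and 866 ± 99.7 in MøFoxO1-KO mice (SD, n = 4). Its log2 fold change was 0.32 (edgeR, Benjamini-Hochberg adjusted P = 0.264) and turned to -0.042 with that offset. Cox8a likewise turned from 0.28 (edgeR, Benjamini-Hochberg adjusted P = 0.334) to -0.049. Cox4i1, the liver form of subunit 4, had a log2 fold change of 0.47 (edgeR, Benjamini-Hochberg adjusted P = 0.209) and kept 0.33 with the offset, where it stayed past an unadjusted P of 0.05. The other members past that P without the offset were Cox5a at 0.29, Cox5b at 0.51, Cox6c at 0.56 and Cox7c at 0.43, and of these Cox5a was without overlap between genotypes. Cox5b and Cox6c had 0.37 and 0.59 with the offset and stayed past it, whereas Cox5a and Cox7c had -0.012 and 0.18 and did not. Cox4i1 shares 154 exon bases with Emc8 and Cox6c 250 with Vps13b, both on the opposite strand.

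Subunits 4, 6a, 6b, 7a, 7b and 8 exist in isoforms, and these livers held nearly only the widely expressed form of each. Cox7a1, the form of heart and skeletal muscle, was the single tested member of complex IV below 0, with normalized counts of 26.2, 18.7, 33.2 and 24.9 in WT littermates and 22, 27.5, 14.2 and 22.4 in MøFoxO1-KO mice. Its counts were low in every mouse and the genotypes overlapped, with a log2 fold change (± SE) of -0.26 ± 0.32 (edgeR, Benjamini-Hochberg adjusted P = 0.719). Cox6b2, the testis form of subunit 6b, had 7.49, 7.87, 16.6 and 7.96 in WT littermates and 15.3, 26.3, 9.49 and 12.3 in MøFoxO1-KO mice. WT littermate 24 stood above the other WT littermates, the genotypes overlapped, and the log2 fold change was 0.64 (edgeR, Benjamini-Hochberg adjusted P = 0.51). With the offset, Cox7a1 had -0.59 and Cox6b2 0.41. The 6 members that did not pass the filter were Cox4i2, Cox6a2, Cox6c2, Cox7b2, Cox8b and Cox8c. Cox7b2 and Cox8c had 0 counts in every mouse, which allows up to 3 counts per library. Raw counts per mouse ran from 0 to 13 for Cox4i2, from 0 to 25 for Cox6a2, from 2 to 12 for Cox6c2 and from 1 to 8 for Cox8b. Skeletal muscle markers were likewise near absent, since 4 of 5 did not pass the filter and Myh4 had 0 counts throughout, and Mylpf had a log2 fold change of -0.051 (edgeR, Benjamini-Hochberg adjusted P = 0.959). None of 4 adipocyte markers passed it.

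In complex V, 16 of 17 genes had a log2 fold change above 0, with a median of 0.35, or 0.21 with the offset for gene length and GC content, and 11 were higher at an unadjusted P under 0.05. Atp5o (ENSMUSG00000022956, chr16:91684398-91931687 of GRCm38), the peripheral stalk subunit that joins the stalk to the F1 head, had the smallest P of all members. Its normalized counts were 2984, 2725, 2485 and 3036 in WT littermates and 3629, 4503, 3545 and 4461 in MøFoxO1-KO mice. No WT littermate reached the lowest MøFoxO1-KO mouse. Atp5o averaged 2808 ± 254 in WT littermates and 4034 ± 518 in MøFoxO1-KO mice (SD, n = 4), with a log2 fold change (± SE) of 0.52 ± 0.13 (edgeR, Benjamini-Hochberg adjusted P = 0.123) and a DESeq2 adjusted P of 0.0108, and its log2 fold change was 0.48 with the offset. The annotated exons of Atp5o share 287 bases with Donson on the same strand, and Donson had 484 counts over the 8 mice. Atp5e (ENSMUSG00000016252, chr2:174461072-174464105 of GRCm38), the smallest F1 subunit, had normalized counts of 3902, 2463, 3292 and 4316 in WT littermates and 4340.3, 7312, 5169 and 6899 in MøFoxO1-KO mice. Mice 27 and 29 were highest, and mouse 26 was just above WT littermate 25. It had the largest log2 fold change of all tested members, a log2 fold change (± SE) of 0.76 ± 0.22 (edgeR, Benjamini-Hochberg adjusted P = 0.148), and a DESeq2 adjusted P of 0.022, and had 0.66 with the offset.

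Atp5j2, a membrane subunit, had normalized counts of 3279, 2457, 2564 and 3415 in WT littermates and 3777, 4925, 4017 and 4274 in MøFoxO1-KO mice, without overlap, with a log2 fold change (± SE) of 0.54 ± 0.15 (edgeR, Benjamini-Hochberg adjusted P = 0.145) and a DESeq2 adjusted P of 0.0265. Atp5j, coupling factor 6 of the peripheral stalk, had 3863, 2987, 3156 and 3736 in WT littermates and 4062, 4997, 4344 and 5103 in MøFoxO1-KO mice, again without overlap, at a log2 fold change of 0.43 (edgeR, Benjamini-Hochberg adjusted P = 0.182). Its exons share 397 bases with Gabpa on the opposite strand, and Gabpa had a log2 fold change of -0.23 (edgeR, Benjamini-Hochberg adjusted P = 0.556). Atp5j2 and Atp5j had 0.56 and 0.45 with the offset for gene length and GC content. The c ring is encoded by 3 genes whose products are the same mature protein. Atp5g3 was the most abundant per exon length, with an RPKM of 228 ± 23.5 in WT littermates and 288 ± 23.1 in MøFoxO1-KO mice (SD, n = 4). Atp5g3 and Atp5g1 had log2 fold changes of 0.33 (edgeR, Benjamini-Hochberg adjusted P = 0.234) and 0.35 (edgeR, Benjamini-Hochberg adjusted P = 0.205), both without overlap between genotypes, whereas that of Atp5g2 was 0.11 (edgeR, Benjamini-Hochberg adjusted P = 0.65) and its genotypes overlapped. With the offset, Atp5g3 and Atp5g1 had 0.28 and 0.42, and Atp5g2 turned to -0.076. Of the remaining members, 4 were higher at an unadjusted P under 0.05, namely the stalk subunit Atp5h at 0.43 and the membrane subunits Atp5k at 0.54, Atp5mpl at 0.48 and Atp5l at 0.37, all with genotypes that overlapped. With the offset none of these 4 stayed past that P, at 0.28 for Atp5h, 0.21 for Atp5k, 0.14 for Atp5mpl and 0.019 for Atp5l, and 7 of the 11 genes of the complex did. The stalk subunit Atp5f1 had 0.13 (edgeR, Benjamini-Hochberg adjusted P = 0.626). Atp5s, the coupling factor B gene and the tested member of the complex with the lowest level per exon length, had 0.28 (edgeR, Benjamini-Hochberg adjusted P = 0.36) with every MøFoxO1-KO mouse above every WT littermate. Atp5f1 and Atp5s had 0.14 and 0.12 with the offset.

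The large head subunits had the smallest log2 fold changes of complex V. Atp5a1 (ENSMUSG00000025428), the alpha subunit of F1, had the highest level per exon length of the complex in WT littermates, and its normalized counts were 15383, 20165, 11555 and 13354 in WT littermates and 17033, 13880.4, 14578 and 14907 in MøFoxO1-KO mice. WT littermate 23 was highest and 24 was lowest, and all 4 MøFoxO1-KO mice lay between them. Means were 15115 ± 3713 in WT littermates and 15099 ± 1358 in MøFoxO1-KO mice (SD, n = 4), with a log2 fold change (± SE) of -0.0014 ± 0.18 (edgeR, Benjamini-Hochberg adjusted P = 0.997). Atp5b, the beta subunit that carries the catalytic sites, had 16726, 21252, 14274 and 16558 in WT littermates and 18016, 16013, 17126 and 17999 in MøFoxO1-KO mice. The same mice marked its range, and the log2 fold change was 0.0072 (edgeR, Benjamini-Hochberg adjusted P = 0.986). Within F1, the log2 fold change was 0.14 (edgeR, Benjamini-Hochberg adjusted P = 0.587) for the central stalk subunit Atp5c1, 0.35 (edgeR, Benjamini-Hochberg adjusted P = 0.225) for Atp5d and, as given above, 0.76 for Atp5e. With the offset the values were -0.014 for Atp5a1, 0.050 for Atp5b, 0.051 for Atp5c1 and 0.27 for Atp5d. Counts of Atp5e per count of Atp5a1 ran from 0.122 to 0.323 in WT littermates and from 0.255 to 0.527 in MøFoxO1-KO mice, and this ratio, also chosen after the values were seen, overlapped between genotypes.

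Averaged over the 43 tested genes, the log2 level relative to the WT mean was 0.14, -0.087, -0.17 and 0.12 in WT littermates and 0.22, 0.42, 0.26 and 0.44 in MøFoxO1-KO mice. Every MøFoxO1-KO mouse was above every WT littermate in this average, with mouse 26 nearest to WT littermate 22. Mouse 29 was the highest of the 8 mice in 22 genes and mouse 27 in 11, while WT littermate 24 was the lowest in 26 genes and WT littermate 23 in 14. For complex II alone the averages were 0.14, 0.29, -0.36 and -0.072 in WT littermates and 0.17, -0.055, -0.0032 and 0.12 in MøFoxO1-KO mice, and the genotypes overlapped, with WT littermate 23 highest. For complex IV they were 0.16, -0.22, -0.068 and 0.12 in WT littermates and 0.25, 0.57, 0.29 and 0.50 in MøFoxO1-KO mice, and WT littermate 23 was lowest. Averages of complex III were 0.15, -0.087, -0.22 and 0.15 in WT littermates and 0.19, 0.41, 0.30 and 0.49 in MøFoxO1-KO mice, and those of complex V were 0.12, -0.079, -0.17 and 0.14 in WT littermates and 0.22, 0.44, 0.27 and 0.45 in MøFoxO1-KO mice. In both, WT littermate 24 was lowest and mouse 29 highest. WT littermate 23 was the highest mouse in 5 genes. These were Sdha, Atp5a1, Atp5b and Uqcrc2, which have long coding sequences, and Sdhc, which has 507 coding bases. Among the 14 genes in which it was lowest were Uqcrh, Cox6c and Atp5e, which have short coding sequences. The summed exons of Cox6c, at 3567 bases, are longer than those of Uqcrc2 (2506) and Atp5a1 (3135). WT littermate 23 also had the steepest positive trend of counts with summed exon length, and mouse 29 had the steepest negative one.

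**Figure D3:**
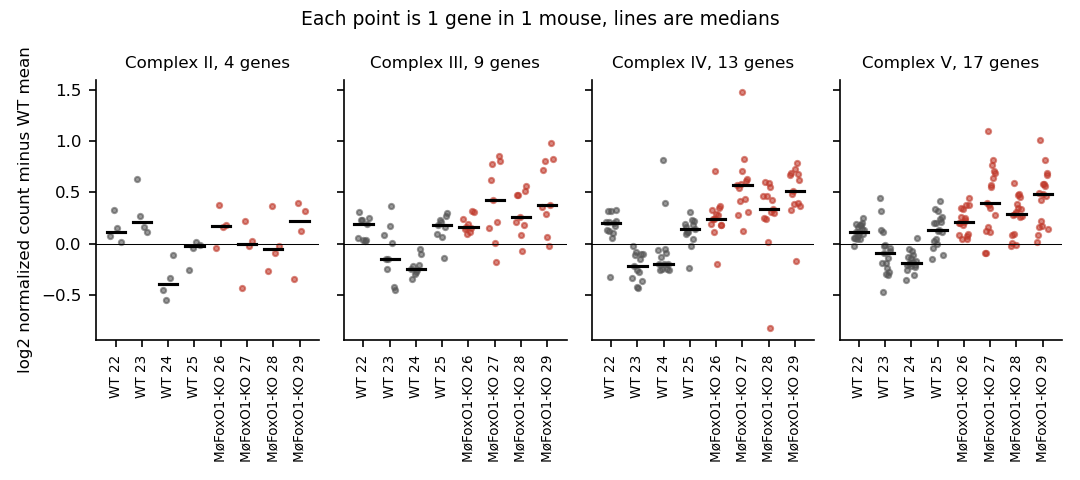
Log2 normalized counts relative to the mean of the 4 WT littermates on the y axis for each tested gene (points) in each mouse (x axis), 1 panel per complex, with the median of each mouse as a line. In complexes III to V, WT littermates 23 and 24 have medians below 0 and all 4 MøFoxO1-KO mice have medians above 0.

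Members with a shorter coding sequence tended to have larger log2 fold changes in complexes III and V, and less so in complex IV. Across the 43 genes, Spearman's rho of log2 fold change with coding length was -0.71, with -0.82 in complex III, -0.78 in complex V and -0.11 in complex IV. These genes share libraries and are not independent, so the values are a description. Across the tested genes with a coding length in the annotation, rho was -0.28. The 28 members with a coding length of up to 500 bases had a median log2 fold change of 0.44, and 22 of them were higher at an unadjusted P under 0.05. Of all 1002 tested genes in that length range, 30.3% were higher at that P and 76% lay above 0, with a median of 0.25. The 15 longer members had a median of 0.14, and 3 were higher at that P, against 6.64% and a median of -0.043 over all longer genes. With summed exon length, which includes untranslated exons, rho over the members was -0.28, with -0.48 in complex III, -0.35 in complex V and the opposite sign, 0.61, in complex IV. With GC content, rho over the members was 0.024. The slopes per library were of 1 sign within each genotype for exon length, and for coding length mouse 28 had a positive slope of 0.018 where the other MøFoxO1-KO mice had negative ones. The part of the length trend in the fold changes of single members was not tested beyond the offsets.

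**Figure D4:**
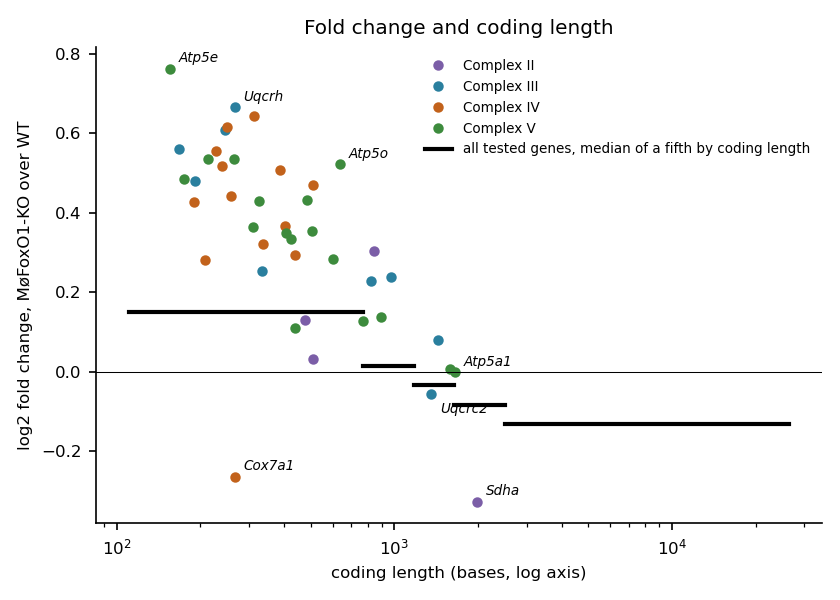
Log2 fold change of MøFoxO1-KO over WT livers (y axis) against coding length in bases (x axis, log scale) for the 43 tested members, coloured by complex, with black lines for the median of all tested genes in 5 classes of coding length. The class medians fall from 0.15 in the shortest class to -0.13 in the longest, and the members of the shortest class lie mostly above its line.

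Genes that serve the same complexes without being their subunits had list medians from -0.057 to 0.22. Among assembly factors of complex IV, 16 of 22 tested genes lay above 0, the number past an unadjusted P of 0.05 was 4 higher and 0 lower, and the median was 0.13. The smallest P there were those of Higd1a at a log2 fold change of 0.47 (edgeR, Benjamini-Hochberg adjusted P = 0.148) and Cox14 at 0.48 (edgeR, Benjamini-Hochberg adjusted P = 0.143). Among the assembly factors of complex III, 4 of 6 tested genes lay above 0, the number past an unadjusted P of 0.05 was 1 higher and 0 lower, and the median was 0.071. Uqcc3, which is needed for cytochrome b, had the smallest P, at 0.76 (edgeR, Benjamini-Hochberg adjusted P = 0.129), with every MøFoxO1-KO mouse above every WT littermate, and Lyrm7 had -0.40 (edgeR, Benjamini-Hochberg adjusted P = 0.573). Assembly factors of complex II numbered 4, all above 0 with a median of 0.22, and 1 of them, Sdhaf1, was higher at an unadjusted P under 0.05, at a log2 fold change of 0.37 (edgeR, Benjamini-Hochberg adjusted P = 0.281), followed by Sdhaf4 at 0.26 (edgeR, Benjamini-Hochberg adjusted P = 0.398). In the list of complex V assembly factors with the inhibitor Atpif1, 1 of 4 tested genes lay above 0, the number past an unadjusted P of 0.05 was 0 higher and 0 lower, and the median was -0.057. Atpif1 had 0.33 (edgeR, Benjamini-Hochberg adjusted P = 0.412) and Tmem70 -0.12 (edgeR, Benjamini-Hochberg adjusted P = 0.666). Cytochrome c (Cycs) and the carriers that bring phosphate and adenine nucleotides to complex V gave a median of 0.14 over 4 genes and 0 past an unadjusted P of 0.05. Cycs, the electron carrier between complexes III and IV, had a log2 fold change of 0.17 (edgeR, Benjamini-Hochberg adjusted P = 0.52), and the adenine nucleotide carrier Slc25a5 one of -0.15 (edgeR, Benjamini-Hochberg adjusted P = 0.624).

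Of the subunits of complexes III to V encoded in mitochondrial DNA, 5 were tested and 0 passed an unadjusted P of 0.05 in edgeR. Cytochrome b of complex III (mt-Cytb) averaged 155115 ± 18954 in WT littermates and 167105 ± 24388 in MøFoxO1-KO mice (SD, n = 4), at a log2 fold change of 0.11 (edgeR, Benjamini-Hochberg adjusted P = 0.787). The catalytic subunit mt-Co1 of complex IV averaged 289309 ± 35349 in WT littermates and 262852 ± 77234 in MøFoxO1-KO mice (SD, n = 4), at -0.14 (edgeR, Benjamini-Hochberg adjusted P = 0.8). In both the genotypes overlapped. The log2 fold changes were 0.15 (edgeR, Benjamini-Hochberg adjusted P = 0.666) for mt-Co2, 0.38 (edgeR, Benjamini-Hochberg adjusted P = 0.368) for mt-Co3 and 0.084 (edgeR, Benjamini-Hochberg adjusted P = 0.856) for mt-Atp6, and mt-Atp8 did not pass the filter. Mean levels of these 4 genes were at most 281 normalized counts per genotype. Mouse nuclear DNA holds near-identical copies of this stretch of the mitochondrial genome, so reads from it can be lost in counting and these values are uncertain. Over the 5 tested genes the median was 0.11 and turned to -0.17 with the offset for gene length and GC content.

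A further list held citric acid cycle enzymes, porins and import proteins of the matrix and outer membrane, with log2 fold changes from -0.56 to 0.47. In this list, 8 of 20 tested genes lay above 0, the number past an unadjusted P of 0.05 was 1 higher and 2 lower, and the median was -0.062. The smallest P were those of Suclg2, a subunit of succinyl-CoA ligase, at -0.56 (edgeR, Benjamini-Hochberg adjusted P = 0.188), and of the import receptor Tomm22, at 0.47 (edgeR, Benjamini-Hochberg adjusted P = 0.199). Among regulators of mitochondrial biogenesis, 5 of 13 tested genes lay above 0, the number past an unadjusted P of 0.05 was 0 higher and 1 lower, and the median was -0.049. Ppargc1a, the coactivator PGC-1alpha, was the gene lower at that P, at -0.53 (edgeR, Benjamini-Hochberg adjusted P = 0.243), and Pprc1 had -0.34 (edgeR, Benjamini-Hochberg adjusted P = 0.345). Genes with symbols of complex I subunits mostly lay above 0 as well, complex I being the entry point for NADH. They were taken by symbol alone, Nduf followed by a, b, c, s or v and a digit. Ndufa4 and Ndufa4l2 are thus among them, and their place in complex I was not examined. In this list, 34 of 37 tested genes lay above 0, the number past an unadjusted P of 0.05 was 26 higher and 0 lower, and the median was 0.42, with Ndufb2 at 0.87 (edgeR, Benjamini-Hochberg adjusted P = 0.0738) and Ndufv3 at 0.56 (edgeR, Benjamini-Hochberg adjusted P = 0.131). Cytosolic ribosomal proteins, which are no part of mitochondria and are likewise encoded by short genes, were counted in the same way. Among them, 74 of 76 tested genes lay above 0, the number past an unadjusted P of 0.05 was 54 higher and 0 lower, and the median was 0.49, with Rpl22l1 at 0.71 (edgeR, Benjamini-Hochberg adjusted P = 0.0682) and Rpl29 at 1.27 (edgeR, Benjamini-Hochberg adjusted P = 0.141). With the offset for gene length and GC content, the medians were 0.19 for complex I, 0.31 for ribosomal proteins, 0.11 for complex III, 0.18 for complex IV and 0.21 for complex V. The count higher at an unadjusted P under 0.05 was then 9 for complex I and 30 for ribosomal proteins, and 2, 5 and 7 for complexes III, IV and V. Whether these lists differ from each other was not tested.

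**Figure D5:**
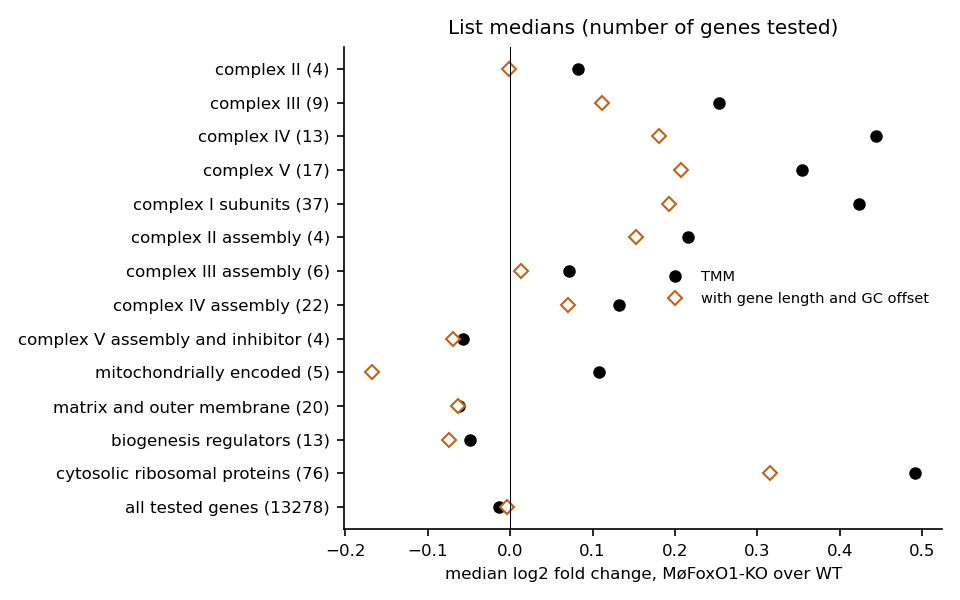
Median log2 fold change of MøFoxO1-KO over WT livers (x axis) for each gene list (y axis, with the number of genes tested), after TMM normalization (filled circles) and with an added offset for gene length and GC content (open diamonds). Complexes I, III, IV and V and the ribosomal proteins lie to the right in both, the lists of regulators and of the matrix and outer membrane lie left of 0, and with the offset complex II moves to about 0 and the mitochondrially encoded genes turn negative.

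Some markers of liver cell types differed at an unadjusted P under 0.05 in edgeR, and none at an adjusted P under 0.05. The part of cell types in the values above was not tested. Among 6 hepatocyte markers, 5 lay above 0 and 1, Apoa1, was higher at an unadjusted P under 0.05, at a log2 fold change of 1.07 (edgeR, Benjamini-Hochberg adjusted P = 0.0765), and Hnf4a had -0.32 (edgeR, Benjamini-Hochberg adjusted P = 0.312). Their summed normalized counts ran from 968810.0 to 1390800.4 in WT littermates and from 1146089 to 1716365 in MøFoxO1-KO mice. Most of this sum was Alb, with means of 860656 in WT littermates and 983709 in MøFoxO1-KO mice. Apoa1 averaged 127306 and 266624 in the same order, so the sum does not stand for all 6 markers. Of 9 macrophage markers, 8 lay above 0 and 5 were higher at that P, among them Marco at 5.18 (edgeR, Benjamini-Hochberg adjusted P = 0.087) and Timd4 at 2.08 (edgeR, Benjamini-Hochberg adjusted P = 0.0968), and their sum ran from 2946 to 5028 in WT littermates and from 3211 to 14479 in MøFoxO1-KO mice. Without WT littermate 23, 2 of the macrophage markers were higher at that P. Over the 13278 genes of the main fit, 1149 were higher at that P with all mice and 953 without WT littermate 23. The macrophage markers were not counted with any other mouse left out. For Marco the genotypes overlapped, with 88 counts in WT littermate 24 and 70 in mouse 28, and for Timd4 they did not. Lyz2, whose promoter drives Cre, was the macrophage marker below 0, at -0.77 (edgeR, Benjamini-Hochberg adjusted P = 0.586). Of 7 stellate cell markers, 3 lay above 0, and the median of the list was -0.062. At an unadjusted P under 0.05, 2 of them were lower, Col1a1 at -1.28 (edgeR, Benjamini-Hochberg adjusted P = 0.193) and Col3a1 at -0.76 (edgeR, Benjamini-Hochberg adjusted P = 0.25). The sum of the stellate cell markers ran from 4339 to 7083 in WT littermates and from 4869 to 8037 in MøFoxO1-KO mice. In the lists of 5 endothelial, 4 cholangiocyte, 5 lymphocyte and 4 neutrophil markers, 0 genes passed that P in edgeR, and 2 of the neutrophil markers, Cxcr2 and Ly6g, did not pass the filter. The smallest P were those of Stab2 at 0.23 (edgeR, Benjamini-Hochberg adjusted P = 0.549) and Clec4g at 0.49 (edgeR, Benjamini-Hochberg adjusted P = 0.613), of Epcam at -0.31 (edgeR, Benjamini-Hochberg adjusted P = 0.701) and Krt19 at -0.43 (edgeR, Benjamini-Hochberg adjusted P = 0.779), of Cd79a at 0.60 (edgeR, Benjamini-Hochberg adjusted P = 0.587) and Ms4a1 at 0.80 (edgeR, Benjamini-Hochberg adjusted P = 0.609), and of S100a9 at -0.079 (edgeR, Benjamini-Hochberg adjusted P = 0.971) and S100a8 at -0.045 (edgeR, Benjamini-Hochberg adjusted P = 0.98).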

How the data were processed

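Polyadenylated RNA of whole liver from 8 mice was sequenced. Counts per Ensembl gene were deposited as 1 table, without normalization and without pooling of mice. STAR, featureCounts and mm10 are named in the submitters' processing notes. How strand and multi-mapping reads were handled is not given in the sources used here. Library sizes limit the precision of genes with few counts, and exons that 11 members share with other genes are uncertain where strand was not used. Reads shared with pseudogene copies of these short genes are likewise uncertain. The 6 entries with ps symbols held at most 9 counts in any mouse, and copies under other names were not examined. The labels name no batch, and each mouse is 1 sample.

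Genes were matched to symbols in GENCODE M21. Of 46517 genes, 46005 had a symbol, and 38860 gene spans equalled M21 (32 of the 49 members). Low genes were dropped with filterByExpr (minimum count 10, minimum total 15). After TMM scaling, genotypes were compared by quasi-likelihood F tests without covariates (edgeR 4.0.16, R 4.3.3), and P values were adjusted over 13278 genes by the Benjamini-Hochberg method. Normalized counts are counts divided by the TMM-scaled library size, relative to the mean of the 8 mice. The standard error is the absolute log2 fold change divided by the square root of F. Offsets were smooth functions of gene length and GC content fitted per library (mgcv 1.9.3). DESeq2 1.42.0 and limma-voom (3.58.1) were alternatives, as were other scalings, other filters, other limits and leaving out each mouse. The offset for coding length and GC content was added after seeing the data. The main edgeR fit, DESeq2 and limma-voom were first checked on simulated counts. The fits with offsets, other scalings, other filters or a mouse left out were not. Summaries used pandas 2.3.3 and Python 3.11.15.

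The members and lists were chosen with earlier results of these data known. The members named are all of complex II, in each other complex the 4 with the smallest edgeR P, the highest level per length and the lowest log2 fold change, the isoform pairs, the c ring genes and members that did not pass the filter. Other genes named are Foxo1, the 2 smallest P of each other list and the mitochondrially encoded subunits. Further members were named after their values were seen.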

Additional observations from a re-analysis of the deposited data

Results flagged for a closer look

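Within each genotype, the highest and lowest of the 4 mice were compared with the other 3 for the 43 tested members by Dixon's criterion, in 86 groups of 4. WT littermate 24 stood apart for Cox6b2, the testis form of subunit 6b, with a normalized count of 16.6 where the other WT littermates had 7.49, 7.87 and 7.96. The counts behind these values are few. The same mouse was low for Cyc1 (cytochrome c1), with 3330.0 where the other WT littermates had 4110.5, 4199 and 4229. Chance flags about 1 in 20 groups, and these were 2 of 86.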

How the results depend on the processing

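The count of members past an adjusted P of 0.05 was 0 in edgeR under every scaling, filter, limit and left-out mouse and in limma-voom, and 7 with DESeq2. The count higher at an unadjusted P under 0.05 was 13 with an offset for gene length, beside 966 of all 13278 tested genes. It was 14 with gene length and GC content, beside 976, and 9 with coding length and GC content, beside 1029. The last of these was an alternative chosen after seeing the data. Leaving out each mouse gave 14 to 26 members higher, and the count of members lower stayed at 0 in all of these fits. Without WT littermate 23 the count higher was 19, beside 953 of the 13278 genes of the main fit. For the other left-out mice the count over all tested genes was not made. The median of complex IV was 0.20, 0.18 and 0.19 with these 3 offsets in that order, and that of complex V 0.21, 0.21 and 0.17. The offsets remove a trend that differs between the genotypes and cannot tell its sources apart. Of the 43 members tested, 31 kept their sign in all alternatives, and none of the 12 that changed sign passed an adjusted P of 0.05 in any. Under the 3 offsets, Atp5g2 had -0.020, -0.076 and -0.18, Cox8a -0.048, -0.049 and -0.092 and Sdhd -0.077, -0.062 and -0.014. Cox6a1 had -0.042 and -0.026 with both offsets for GC content, Cox5a -0.017 and -0.012 and Uqcrb -0.023 and -0.025 with both for gene length, and Cyc1 -0.019 with gene length and GC content. With coding length and GC content, Sdhc had -0.089, Uqcrc2 0.00061 and Atp5a1 0.018. Atp5a1 had 0.00031 with DESeq2, 0.0077 with its size factors, 0.029 with upper-quartile scaling, 0.0042 with at least 10 counts in every mouse, 0.024 with limma-voom and 0.0022 with gene length, and Atp5b -0.0072 without a filter. Leaving out each mouse gave -0.11 to 0.17 for Atp5a1, -0.074 to 0.12 for Atp5b, -0.068 to 0.088 for Sdhc, -0.0040 to 0.14 for Uqcrc1 and -0.14 to 0.081 for Uqcrc2. The cause of these changes was not tested. No paired analysis was possible because the genotypes share no replicate numbers. With 4 mice against 4, exact permutation tests allow no P under 0.0286.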
